A study of Mus musculus with 5 samples.

Results

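The cells described here are 679 of 24849 tagged cells in 3 libraries of sorted mouse neutrophils. They were chosen for a low share of transcripts that are abundant in neutrophils. A cell was chosen when S100a8 and S100a9, the alarmin subunits that fill the neutrophil cytosol, together made up under 2% of its unique molecular identifiers (UMIs, the molecule counts of droplet sequencing), and when the primary granule protease genes Elane, Mpo, Prtn3 and Ctsg together had fewer than 5 UMIs. It also had at least 500 genes, under 10% mitochondrial UMIs, and a top hashtag with at least 80% and at least 20 of its named hashtag counts. These values chose the cells and are not findings. The working name for the cells, non-neutrophil, held for 310 of them: the other 369 carried neutrophil transcripts that the choice did not use, and are called neutrophil-like below.

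Neutrophils from bone marrow, peripheral blood and lung were sorted by flow cytometry from female mice of the C57BL/6J strain with a wild-type genotype. The 3 groups were mice with AT3-gcsf tumours, mice with AT3 tumours and naive mice. AT3 is a mammary carcinoma line of the mouse, and AT3-gcsf is taken from its name to be the same line with G-CSF, the growth factor of neutrophils. Each group is 1 library that mixed 3 populations marked by hashtag antibodies, so the populations are not replicates, and no tissue is assigned to a hashtag since the labels tie none to one. How many mice a population holds, where the tumours grew and how the sort was gated is not stated in the labels.

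Lung tissue holds capillary endothelium, pericytes, fibroblasts, alveolar and airway epithelium and resident macrophages beside passing leukocytes, while marrow holds dividing erythroid and B cell precursors. Alveolar type 2 cells make surfactant proteins such as the one encoded by Sftpc, club cells of the airway secrete the protein of Scgb1a1, capillary endothelium depends on the hypoxia-inducible factor encoded by Epas1, and antigen-presenting cells load peptides with the products of Cd74 and H2-Aa. Mature neutrophils carry the receptor encoded by Csf3r, for G-CSF, and that encoded by Cxcr2, for chemokines that call them out of the marrow.

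The hashtags are what separates the populations of a library, and their antibody oligonucleotides are shown in capitals over their whole length, as the deposited feature lists give them. AT3-gcsf and naive used the first 3 and AT3 the last 3.
MHTO3: CTTGCCGCATGTCAT
MHTO4: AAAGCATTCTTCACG
MHTO5: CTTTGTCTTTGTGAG
MHTO7: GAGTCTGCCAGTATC
MHTO8: TATAGAACGCCAGGC
MHTO10: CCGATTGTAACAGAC

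The libraries had 10828 called barcodes with 99703525 UMIs in AT3-gcsf, 7840 with 54424062 in AT3 and 7738 with 32089597 in naive. The chosen cells had a median of 3753, 3498.5 and 2830 UMIs in AT3-gcsf, AT3 and naive, and the other tagged cells 7657, 4841.5 and 2813.5. Between 20 and 44 barcodes were shared by each pair of libraries, and 4 of the 679 chosen cells had a barcode that also occurred in another library. Scrublet, a doublet caller, marked 404 barcodes in AT3-gcsf, 231 in AT3 and 174 in naive, among them 3 chosen cells, all in naive. Intervals below are exact 95% intervals (Clopper-Pearson for shares, Poisson for levels) that cover counting error only, and with 1 library per group no difference has a replicate check.

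Chosen cells were 121 of 10105 tagged cells in AT3-gcsf (1.20%, 0.995 to 1.43), 190 of 7574 in AT3 (2.51%, 2.17 to 2.89) and 368 of 7170 in naive (5.13%, 4.63 to 5.67). The 3 intervals do not overlap, and naive was the highest. Their share also differed between hashtags of 1 library. In AT3-gcsf it was 0.492% for MHTO3, 1.94% for MHTO4 and 1.03% for MHTO5. In AT3 it was 0.756% for MHTO7, 4.28% for MHTO8 and 1.74% for MHTO10. In naive it was 3.96% for MHTO3, 2.89% for MHTO4 and 8.55% for MHTO5. The limit on S100a8 and S100a9 did not fall in a gap between cells. Cells just inside it, at 1.8% to 2.0%, numbered 21 in AT3-gcsf, 42 in AT3 and 41 in naive, and their UMIs held 1.66%, 4.20% and 4.51% of 19 other neutrophil markers. Cells just outside it, at 2.0% to 2.2%, numbered 11, 32 and 39, with 2.81%, 2.60% and 4.08%.

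The 679 cells fell into 16 clusters, of which 5 had at least 1% of their UMIs in the 19 neutrophil markers, a list without S100a8 and S100a9. Those 5 clusters are the 369 neutrophil-like cells, 85 in AT3-gcsf, 103 in AT3 and 181 in naive. The other 11 clusters are the 310 cells of other lineages, 36 in AT3-gcsf, 87 in AT3 and 187 in naive. A neutrophil-like cell had a median of 2592 UMIs, 1098 genes, 0.509% mitochondrial UMIs and 2.61% neutrophil markers. A cell of another lineage had 9028.5 UMIs, 2755.5 genes, 3.81% mitochondrial UMIs and 0.164% neutrophil markers. For the other sorted cells the median mitochondrial share was 1.42% in AT3-gcsf, 0.672% in AT3 and 0.248% in naive, and the neutrophil marker share 3.34%, 4.47% and 4.45%. Only 1 cell outside the neutrophil-like clusters was above 3% in neutrophil markers, at 19.2%, and it is described with the monocytes.

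**Figure D1:**
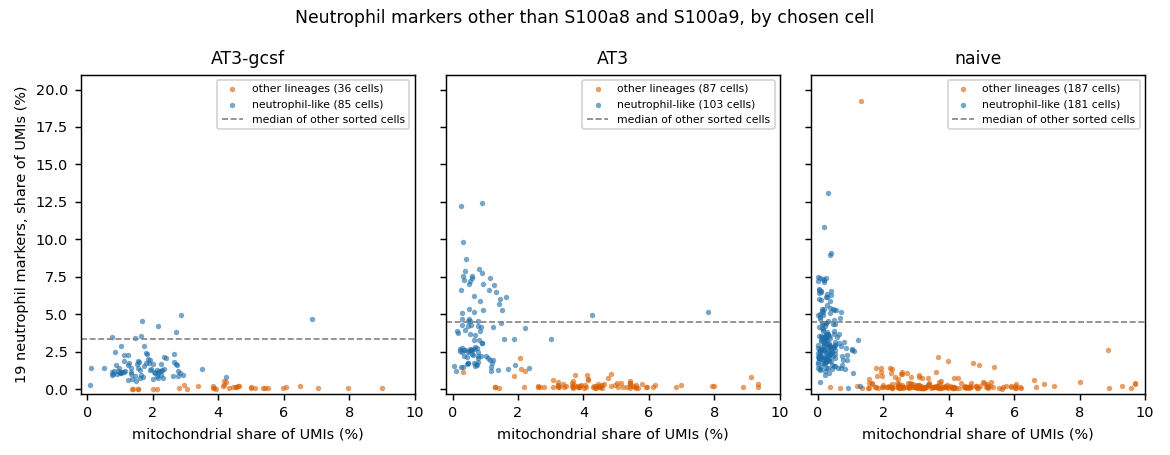
Share of UMIs from 19 neutrophil markers (y axis, percent) against mitochondrial share (x axis, percent), 1 point per chosen cell, for AT3-gcsf, AT3 and naive; the dashed line is the median marker share of the other sorted cells of the library (3.34%, 4.47% and 4.45%). Cells of other lineages lie along the bottom, at a median of 0.164%, apart from 1 naive cell at 19.2%, and neutrophil-like cells at a median of 2.61%.

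The levels of single neutrophil markers in the neutrophil-like cells are given as a description. Csf3r, Cxcr2, Ly6g, Camp, Retnlg, Il1b, Cxcl2 and Acod1 are among the 19 markers whose summed share set these clusters apart, and the other sorted cells were not picked that way. Levels are given as CPM, the UMIs of a gene per all UMIs of the summed cells on the usual scale, and S100a8 and S100a9 took a median of 25.6%, 24.9% and 16.3% of the UMIs of the other sorted cells, which lowers the CPM of every other gene there. Csf3r stood at 1705 CPM in AT3-gcsf, 2273 in AT3 and 2853 in naive neutrophil-like cells, against 763, 1083 and 1570.4 CPM in the other sorted cells of those libraries. Cxcr2 stood at 943, 1170.3 and 1243 CPM, against 579.5, 851 and 929 CPM. In each library both values were above those of the other sorted cells, as a description of clusters picked on these markers. Ly6g, which encodes the surface protein commonly stained to sort mouse neutrophils, stood at 37.6 CPM (18.8 to 67.3) in AT3-gcsf, 53.8 CPM (30.8 to 87.4) in AT3 and 14.7 CPM (5.39 to 32.0) in naive, against 701, 691 and 414 CPM in the other sorted cells. The secondary granule gene Camp was at 10.3, 235 and 406 CPM, against 552, 5341 and 10493 CPM. Retnlg, a resistin-like gene of mature neutrophils, was at 2382, 2260.0 and 1940.4 CPM, against 15198, 16953 and 13781 CPM. Ly6g, Camp and Retnlg were all lower than in the other sorted cells of the same library in each of the 3 libraries. Low S100a8 and S100a9 chose the cells, so these values too are no test. Unless a hashtag is named, levels of the other sorted cells are sums over all hashtags of a library, and the mix of hashtags differed. In naive, MHTO4 held 15 of 181 neutrophil-like cells and 2014 of 6802 other sorted cells. The part of the hashtag mix in these differences was not tested.

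The 5 neutrophil-like clusters were divided by library and hashtag. Cluster c0 had 82 cells, 75 of them in AT3-gcsf and 67 of those under MHTO4. It was led by Saa3, an acute-phase protein gene, Wfdc17, a secreted antiprotease-like gene, Ifitm1, Igfbp6 and Siglecf, a lectin of eosinophils and alveolar macrophages, and none of its 10 leading genes was a listed neutrophil marker although all 21 listed were detected. In AT3-gcsf c0 cells Saa3 stood at 6044 CPM, and in the 7 AT3 cells of the cluster it was not seen, against 3871 and 78.6 CPM in the other sorted cells of AT3-gcsf and AT3. Siglecf was at 189.7 CPM in AT3-gcsf and 473 CPM in AT3 cells of c0, against 24.2 and 15.9 CPM in the other sorted cells. Of 10 eosinophil markers only Siglecf was detected in c0 by at least 3 UMIs, and the eosinophil peroxidase gene Epx had no UMI in any chosen cell.

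Clusters c8 and c14 carried inflammatory neutrophil genes. Cluster c14 had 77 cells, 65 of them under naive MHTO5 and 12 under AT3 MHTO8, and was led by Acod1, the itaconate enzyme, G0s2, Il1r2, the interleukin 1 decoy receptor, and Il1rn. Il1b stood at 29652 CPM in AT3 and 18321 CPM in naive c14 cells, and Cxcl2, a neutrophil chemoattractant, at 7565 and 7796 CPM. The other sorted cells, summed over all hashtags of a library, had 6561 CPM of Il1b in AT3 and 4922 in naive. Hashtag and cluster are not separated in that contrast, since c14 lay only under MHTO5 in naive and MHTO8 in AT3. Cluster c8 had 63 cells, 9 in AT3-gcsf, 38 in AT3 and 16 in naive, led by Il1b, Trem1, G0s2 and Cxcl2. Its Il1b was at 15222 CPM in AT3-gcsf, 27305 in AT3 and 7015 in naive. Platelet markers were also detected in c8, 10 of 11 listed, and cells with at least 3 of them were none of its 9 AT3-gcsf, none of its 38 AT3 and 2 of its 16 naive cells. One of these, with 13948 UMIs, held 358 UMIs of Pf4, the platelet chemokine, and 0.0860% neutrophil markers, which goes against the name of its cluster. The 3 chosen cells marked by Scrublet were all in c8.

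Clusters c13 and c15 were led in part by Cxcr2 and Csf3r. Cluster c15 had 90 cells, 11 in AT3 and 79 in naive, 70 of these under MHTO3 and also led by Oas3, an antiviral synthetase gene, and Slfn8. Csf3r stood at 2686 CPM in AT3 and 4032 in naive c15 cells. Cluster c13 had 57 cells, 1 in AT3-gcsf, 35 in AT3 and 21 in naive and also led by Il1f9, an interleukin 36 gene, and Slfn1. Il1b in c13 was at 5256 CPM in AT3 and 3189 in naive, below c8 and c14 of the same library in both.

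The 310 cells of other lineages made up 0.356% of tagged cells in AT3-gcsf (0.2496 to 0.493), 1.15% in AT3 (0.921 to 1.41) and 2.61% in naive (2.25 to 3.00). The intervals do not overlap. In each library 1 hashtag held most of them: MHTO5 held 29 of 36 in AT3-gcsf (80.6%), MHTO8 held 80 of 87 in AT3 (92.0%) and MHTO5 held 121 of 187 in naive (64.7%). As a share of the tagged cells of those populations they were 0.783% (0.525 to 1.12), 2.61% (2.08 to 3.24) and 5.22% (4.35 to 6.21). Under the remaining hashtags the share was 0.176% for MHTO3 and 0.0563% for MHTO4 in AT3-gcsf, 0.0504% for MHTO7 and 0.237% for MHTO10 in AT3, and 0.756% for MHTO3 and 2.17% for MHTO4 in naive. A sort, and how strictly it was gated in each preparation, can set such shares, and its part in them was not tested. The sort's effect also differs by type, so shares here are of cells that passed it and not of a tissue.

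A second clustering of the 310 cells alone gave 21 clusters, described as 18 classes. Lymphoid classes held 93 cells (30% of the 310, 24.95 to 35.4), monocyte, macrophage and dendritic classes 85 (27.4%, 22.5 to 32.7), vessel, stroma and epithelium 117 (37.7%, 32.3 to 43.4) and a dividing class 15 (4.84%, 2.73 to 7.86). Vessel, stroma and epithelium made up 61.1% of the cells of other lineages in AT3-gcsf (22 of 36, 43.5 to 76.9), 55.2% in AT3 (48 of 87, 44.1 to 65.9) and 25.1% in naive (47 of 187, 19.1 to 32.0). Over all hashtags the naive interval lies below both others. Within the hashtag that held most cells of other lineages, the share was 72.4% for AT3-gcsf MHTO5 (21 of 29, 52.8 to 87.3). It was 58.75% for AT3 MHTO8 (47 of 80, 47.2 to 69.6) and 38.8% for naive MHTO5 (47 of 121, 30.1 to 48.1). There the naive interval overlaps that of AT3 and lies below that of AT3-gcsf. Lymphoid cells made up 19.4% in AT3-gcsf (7 of 36, 8.19 to 36.0), 18.4% in AT3 (16 of 87, 10.9 to 28.1) and 37.4% in naive (70 of 187, 30.5 to 44.8). Of the 117 vessel, stroma and epithelium cells 115 carried MHTO5 in AT3-gcsf or naive or MHTO8 in AT3, and 2 carried another hashtag, beside 230 of all 310 cells of other lineages under those hashtags. In naive none of the 66 cells under MHTO3 and MHTO4 was of that group, while lymphoid cells were 14 of 21 under MHTO3 and 24 of 45 under MHTO4.

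**Figure D2:**
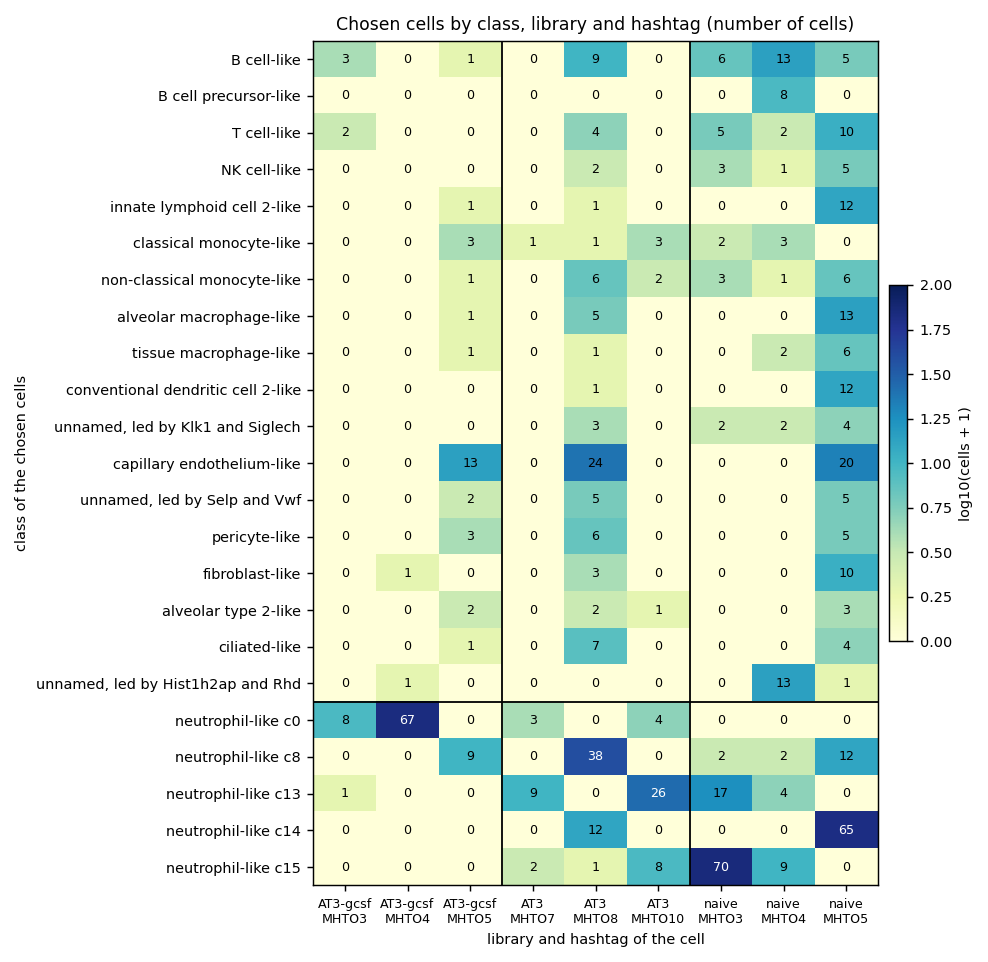
Number of chosen cells in each class (rows) by library and hashtag (columns, AT3-gcsf, AT3, naive); colour is log10 of cells + 1, and the horizontal line separates 18 classes of other lineages from 5 neutrophil-like clusters. Capillary endothelium-like cells lie under 1 hashtag per library (13, 24 and 20 cells), and cluster c0 is largely AT3-gcsf MHTO4 (67 cells).

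B cell-like cells were the most frequent lymphoid class, with 37 cells, 4 in AT3-gcsf, 9 in AT3 and 24 in naive. All 12 B cell markers were detected in both of their clusters. Cd79a, a chain of the B cell receptor complex, had a UMI in 37 of 37 cells and stood at 4108 CPM in AT3-gcsf, 2653 in AT3 and 3401 in naive. Igkc, the kappa light chain constant gene, was at 12683, 8239 and 13209 CPM, and Ighd, which marks mature naive B cells, had a UMI in 35 of 37. All 8 B cell precursor-like cells carried MHTO4 in naive. Ebf1, the factor that commits cells to the B lineage, was in 8 of 8 of them at 5570.3 CPM (4893 to 6315), Rag1, a recombinase gene, in 5 of 8, and Vpreb1, a surrogate light chain gene, and Dntt in 3 of 8 each. Ighd was at 91.3 CPM there, against 838 CPM in the naive B cell-like cells.

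T cell-like cells numbered 23, 2 in AT3-gcsf, 4 in AT3 and 17 in naive, and all had a UMI of Cd3d and Cd3e, the receptor's signalling chains. The coreceptor genes Cd4 and Cd8b1 each had a UMI in 6 of 23 cells, at 60.6 and 222 CPM. NK cell-like cells numbered 11, 2 in AT3 and 9 in naive. All had Ncr1, an activating receptor, and Gzma, a granule protease, which stood at 22336 CPM in AT3 and 14858 in naive. No NK cell-like cell was seen among 10105 tagged AT3-gcsf cells, which allows a share of up to 0.0297% by a limit of 3 cells (exact upper bound 0.0365%), against 0.126% (0.0574 to 0.238) in naive.

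Group 2 innate lymphoid cell-like cells were 14, with 1 in AT3-gcsf, 1 in AT3 and 12 under MHTO5 in naive. Gata3, the factor of type 2 lymphocytes, and Il1rl1, the interleukin 33 receptor, each had a UMI in 13 of 14 cells. The 12 naive cells expressed effector cytokines: Csf2, which encodes GM-CSF, stood at 3298 CPM (2895 to 3742), Il5, an eosinophil growth factor, at 794 CPM, Il13 at 698 CPM and the chemokine gene Ccl1 at 2354 CPM. Il13 came from 3 of 14 cells of the class and Csf2 from 11 of 14. Csf2 had no UMI in the AT3-gcsf or the AT3 cell.

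Classical monocyte-like cells were 13, 3 in AT3-gcsf, 5 in AT3 and 5 in naive. Ccr2, the receptor that draws monocytes from marrow, stood at 414 CPM in AT3-gcsf, 1353 in AT3 and 956 in naive, and Ly6c2 at 473, 1546 and 717 CPM. The secondary granule genes Ngp and Camp were also among the leading genes of the class, and 1 cell accounts for nearly all of Ngp. Under naive MHTO4, with 6130 UMIs, it held 538 of the class's 550 Ngp UMIs, 1920 UMIs of the haemoglobin gene Hbb-bs and 19.2% neutrophil markers. It goes against the name of its class. A second cell of the class, under AT3 MHTO10, held 1641 UMIs of Hbb-bs among 5746. Non-classical monocyte-like cells were 19, 1 in AT3-gcsf, 8 in AT3 and 10 in naive, and all had Spn and Treml4. Ace, which encodes angiotensin-converting enzyme, stood at 662 CPM in AT3 and 661 in naive, and Cd300e at 293 and 105 CPM.

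Alveolar macrophage-like cells were 19, with 1 under AT3-gcsf MHTO5, 5 under AT3 MHTO8 and 13 under naive MHTO5. All 14 markers were detected, and Ear1, a ribonuclease gene, and Fabp1, a fatty acid carrier, had a UMI in every cell. Marco, a scavenger receptor, was at 13.8 CPM (0.351 to 77.2) in AT3 and 379 CPM (297 to 476) in naive, and Krt79 at 388 and 607 CPM. Marco was seen in 9 of 19 cells of the class. Tissue macrophage-like cells were 10, 1 in AT3-gcsf, 1 in AT3 and 8 in naive, and all had the complement genes C1qa, C1qb and C1qc, with C1qa at 11109, 8916 and 7756 CPM. The 8 naive cells had Ccl2, a monocyte chemoattractant, at 8205 CPM. The single AT3-gcsf cell had Ccl8 at 13296 CPM, against 263 CPM in naive, and the single AT3 cell had none of either chemokine.

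Type 2 conventional dendritic cell-like cells were 13, of which 1 carried MHTO8 in AT3 and 12 MHTO5 in naive. They carried Cd74, the class II invariant chain, at 51307 CPM in AT3 and 50134 in naive and H2-Aa, a class II chain, at 17597 and 15055 CPM. Cd209a, a lectin, was in 10 of 13 and Ccl17, a chemokine gene, in 9 of 13. A further class of 11 cells, 3 in AT3 and 8 in naive, was led by Klk1 and Siglech, plasmacytoid genes, and by Clec9a, a receptor of cross-presenting dendritic cells. Siglech was in 5 cells, Clec9a in 8 and both in 4, so it is left unnamed. Its Irf8, a factor that both dendritic types need, stood at 1121 CPM in AT3 and 1049 in naive.

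**Figure D3:**
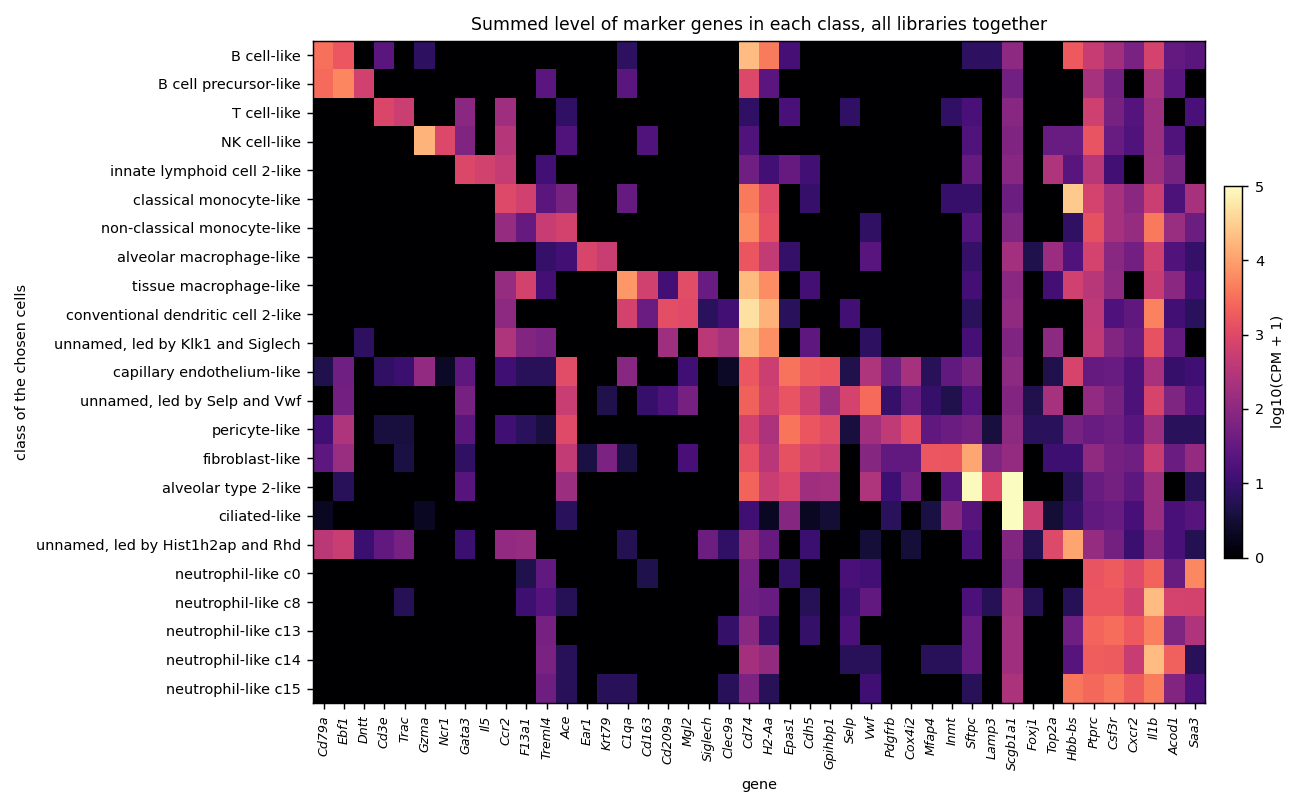
Level of 44 genes (x axis) in each class of chosen cells (y axis), as log10 of summed CPM + 1 over all 3 libraries. Marker genes stand high in their own class, and Scgb1a1 stands highest in ciliated-like (270827 CPM) and alveolar type 2-like cells (229768 CPM).

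Capillary endothelium-like cells were the largest class of other lineages: 57 cells, 13 in AT3-gcsf, 24 in AT3 and 20 in naive. They made up 0.351% (0.187 to 0.599) of tagged cells under MHTO5 in AT3-gcsf, 0.784% (0.503 to 1.16) under MHTO8 in AT3 and 0.863% (0.528 to 1.33) under MHTO5 in naive, and none was found under the other 6 hashtags. All 17 endothelial markers were detected. Epas1 (ENSMUSG00000024140.10, chromosome 17, 86753700 to 86833410, plus strand) had a UMI in 56 of 57 cells and stood at 4158 CPM in AT3-gcsf, 3383 in AT3 and 3029.9 in naive. Cdh5, the endothelial cadherin, was in 57 of 57, and Gpihbp1, which anchors lipoprotein lipase on capillaries, was at 1884, 1277 and 1469 CPM.

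The class joined 3 clusters with different leading genes. Cluster s1, led by Cxcl12, Npr3 and Gpihbp1, had 3 AT3-gcsf, 12 AT3 and 18 naive cells. Cluster s5, led by Wfdc1, Ly6c1 and Prx, had 8 AT3-gcsf and 4 AT3 cells and none of the naive ones. Cluster s7, led by Fibin, Ednrb, Apln and Kdr, had 2 AT3-gcsf, 8 AT3 and 2 naive cells. Ednrb and Car4, markers of the larger alveolar capillary type in mouse lung, stood at 158 and 724 CPM in AT3-gcsf, 382 and 1083 in AT3 and 172 and 820.5 in naive over the whole class.

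A class of 12 cells, 2 in AT3-gcsf, 5 in AT3 and 5 in naive, was led by Selp, the adhesion receptor P-selectin, and Vwf, the platelet-binding clotting factor, both genes of larger vessels. Vwf was in all 12 and stood at 4362 CPM in AT3-gcsf, 3394 in AT3 and 1329.7 in naive, against 328, 209.7 and 225 CPM in the capillary class. Acta2, smooth muscle actin, was in 4 of 12, at 416 CPM in AT3 and 4324 CPM in naive. All 17 listed endothelial markers were detected but none of them was among its 10 leading genes, which held Acta2, a listed smooth muscle marker, and Vcam1, an adhesion gene listed for tissue macrophages, so the class is left unnamed. Pericyte-like cells were 14, 3 in AT3-gcsf, 6 in AT3 and 5 in naive. All had Pdgfrb, the pericyte's growth factor receptor, Cox4i2 and Kcnk3, and Pdgfrb stood at 392, 383 and 544 CPM. They also carried Cdh5, in 11 of 14 cells at 1562 CPM, and 16 of 17 endothelial markers at 2 or more times their level in the other cells, so a pericyte attached to an endothelial cell and a single pericyte cannot be told apart here. Scrublet marked none of the 14.

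Fibroblast-like cells were 14, 1 in AT3-gcsf, 3 in AT3 and 10 under MHTO5 in naive. Col1a2, a collagen chain, was in 13 of 14 and stood at 1172 CPM in AT3-gcsf, 1339 in AT3 and 601 in naive. Inmt, a methyltransferase gene of lung fibroblasts, was at 1999.9 CPM in AT3 and 1708 in naive, with no UMI in the AT3-gcsf cell, which carried MHTO4 and had Dcn, a matrix proteoglycan, at 2774 CPM. Dcn was at 1290.2 CPM in AT3 and 146 in naive, and only 4 of 14 cells of the class had it. One naive cell of the class, with 46543 UMIs, held 3650 UMIs of Sftpc, 7.84% of its total. Another cell of the class carried all 112 UMIs of Msln, a mesothelial surface gene, in the chosen cells. The Sftpc and Msln UMIs go against the name of the class, and both cells stay in its counts.

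Alveolar type 2-like cells were 8, 2 in AT3-gcsf, 3 in AT3 and 3 in naive, with all 11 markers detected. The number of Sftpc UMIs per cell was 537 and 33 in AT3-gcsf, 7024, 6104 and 125 in AT3, and 3969, 2 and 0 in naive. The cell with 6104 carried MHTO10 and the others MHTO5 or MHTO8. Slc34a2, their phosphate transporter, stood at 1824 CPM in AT3-gcsf, 4499.8 in AT3 and 1478 in naive. The naive cells had 21188, 70133 and 1345 UMIs, so the naive level is scaled largely by the cell with 70133, described next. The order of the libraries in Slc34a2 is therefore not read as a difference. The naive cell with 2 Sftpc UMIs had 70133 UMIs in all, of which 44775 (63.8%) were Scgb1a1, with 605 of Scgb3a2 and 321 of Cyp2f2, club cell genes, and none of Foxj1, the ciliated cell factor. It goes against the name of its class.

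Ciliated-like cells were 12, 1 in AT3-gcsf, 7 in AT3 and 4 in naive, all under MHTO5 or MHTO8. Foxj1, Ccdc153 and Dynlrb2, genes of motile cilia, had a UMI in all 12, and Foxj1 stood at 437 CPM in AT3-gcsf, 490.0 in AT3 and 735 in naive. By median these were the deepest class of the chosen cells, with 80964.5 UMIs and a maximum of 183661, against 9028.5 over the cells of other lineages. In 4 of them, 1 in AT3-gcsf, 2 in AT3 and 1 in naive, Scgb1a1 made up 43.5% (AT3-gcsf), 52.0% and 40.3% (AT3), and 34.8% (naive) of the UMIs, beside 78, 36, 31 and 33 UMIs of Foxj1. In the other 8 the Scgb1a1 share was at most 0.138%. Whether the 4 are single cells or droplets with a second cell was not tested, and Scrublet marked none of them. The keratin genes Krt8 and Krt18 stood at 1606 and 1047 CPM in the class, and Krt5 and Csn3, genes of basal and mammary epithelium, had no UMI in any chosen cell.

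The 15 cells of the dividing class were led by histone genes and Rhd, a red cell antigen gene, with 1 under MHTO4 in AT3-gcsf and 13 under MHTO4 and 1 under MHTO5 in naive. Mki67, a proliferation marker, had a UMI in all 15 and Top2a, the topoisomerase of dividing cells, in 14 of 15. By at least 3 markers each, 4 cells were erythroid, 6 B-lineage, none both and 5 neither, and Hbb-bs was in 5 of 15. No single name covers them and none is given. None was found among 7574 tagged AT3 cells, which allows a share of up to 0.0396% by a limit of 3 cells (exact upper bound 0.0487%), against 0.195% (0.107 to 0.327) in naive.

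The 5 genes first named as marks of these cells differed in how many cells carried them. Scgb1a1 (ENSMUSG00000024653.2, chromosome 19, 9083636 to 9087958, minus strand) had 298583 UMIs over 281 chosen cells, but 99.8% of them lay in 5 cells, the 4 ciliated-like cells and the 1 naive cell above, and 163 cells had exactly 1 UMI. Sftpc (ENSMUSG00000022097.4, chromosome 14, 70520949 to 70524081, minus strand) had 21575 UMIs in 75 cells, 98.7% of them in 5 cells. Cd74 had 22181 UMIs in 263 cells with 19.7% in the top 5, H2-Aa (ENSMUSG00000036594.15, chromosome 17, 34282744 to 34287823, minus strand) 6512 in 190 cells with 22.6%, and Epas1 5171 in 122 cells with 23.3%. The summed level of Scgb1a1 and Sftpc is therefore set by single cells, and that of Cd74, H2-Aa and Epas1 is not.

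Few of the other sorted cells had at least 3 listed club and secretory airway markers. They were 2 of 9984 in AT3-gcsf, 2 of 7384 in AT3 and 4 of 6802 in naive. Scgb1a1 was present in many more of the other sorted cells, which were sorted as neutrophils, a cell type that should lack it. Under MHTO3, MHTO4 and MHTO5 of AT3-gcsf it had a UMI in 18.4%, 16.4% and 19.4% of them, under MHTO7, MHTO8 and MHTO10 of AT3 in 48.4%, 45.6% and 38.3%, and under MHTO3, MHTO4 and MHTO5 of naive in 35.5%, 41.9% and 40.4%. A positive cell had a median of 1 UMI, and the highest had 14. Under the hashtags with no Scgb1a1-rich cell the chosen cells were of the same order, at 19.96 and 45.4 CPM in AT3-gcsf, 122 and 139.5 in AT3 and 162 and 81.1 in naive, against 26.8 and 20.02, 63.7 and 116, and 174 and 86.6 CPM in the other sorted cells. A single UMI of Scgb1a1 is thus not taken here as a mark of an airway cell, and where such UMIs came from was not tested.

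Epas1 reached its highest level in the chosen cells under 1 hashtag of each library, far above the other sorted cells there. Under AT3-gcsf MHTO5 it stood at 2351 CPM in the chosen and 7.33 CPM in the other sorted cells, under AT3 MHTO8 at 1293 and 19.8 CPM, and under naive MHTO5 at 704 and 6.40 CPM. Under the other 6 hashtags the chosen cells had at most 52.3 CPM. Cd74 had another spread: under naive MHTO3, MHTO4 and MHTO5 the chosen cells were at 7213, 1933 and 6974 CPM, against 120.4, 49.6 and 305 CPM in the other sorted cells. Sftpc-rich cells also lay outside the choice: 1 other sorted cell under AT3-gcsf MHTO5 had 2998 Sftpc UMIs, 1 under AT3 MHTO8 1162 and 1 under naive MHTO4 5964. The rule therefore did not gather every Sftpc-rich droplet, and which of its limits left these out was not examined.

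**Figure D4:**
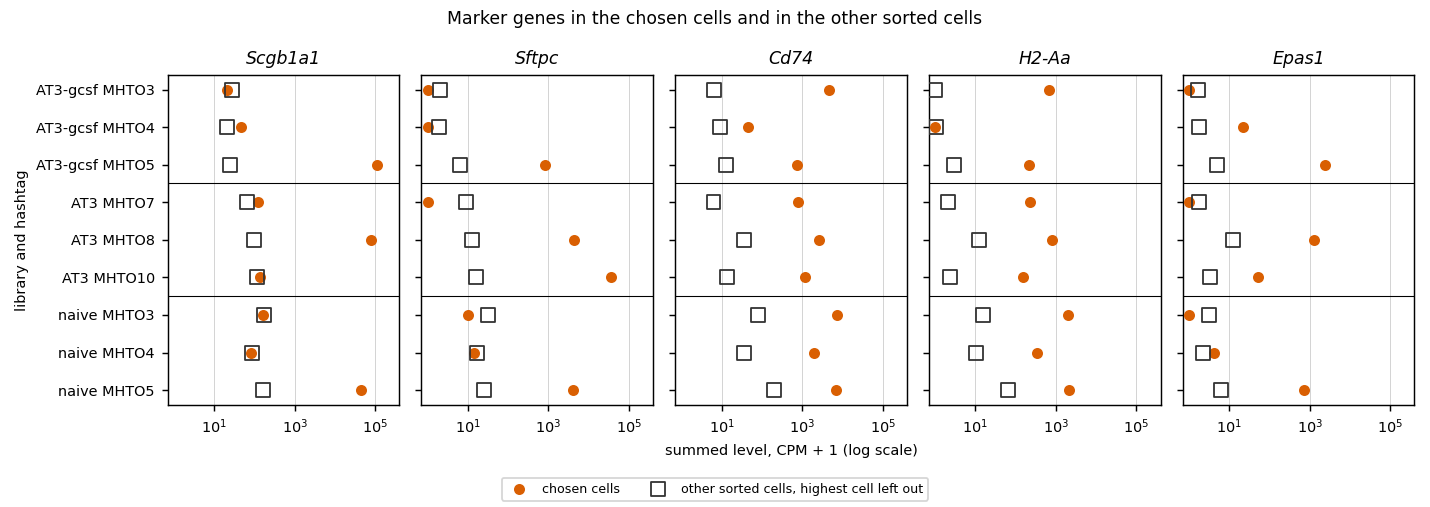
Summed level of 5 genes (CPM + 1, log scale) by library and hashtag in the chosen cells (circles) and the other sorted cells without their highest cell (squares). Scgb1a1 parts from the other cells under 3 hashtags only, where it stands between 45272 and 111583 CPM, and Cd74 is higher in the chosen cells under every hashtag.

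The leukocyte genes Ptprc and Itgam differed in level between classes. Ptprc, the pan-leukocyte CD45 gene, stood at 1967 CPM in the neutrophil-like cells and 246 CPM in the cells of other lineages. It was 31.2 CPM in capillary endothelium-like, 35.1 in pericyte-like and 28.9 in ciliated-like cells, against 1472 CPM in NK cell-like and 1355 in non-classical monocyte-like cells. Itgam, which encodes the myeloid integrin CD11b, was at 436 CPM in non-classical and 306 in classical monocyte-like cells, 7.28 in alveolar macrophage-like and 20.8 in capillary endothelium-like cells. Ly6g was at 14.6 CPM over all cells of other lineages, 701 CPM in the other sorted cells of AT3-gcsf, 691 of AT3 and 414 of naive. Transcript levels do not give the surface protein on which a sort acts.

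With 24 and 20 cells, capillary endothelium-like cells were 1 of only 2 classes large enough to set AT3 beside naive, at 20 or more cells in each. Their sums held 324221 UMIs in AT3 and 186475 in naive, from cells with a median of 13310 and 6318 UMIs. A gene was counted as different at a 2-fold ratio after 5 CPM were added to both sums, among genes at 100 CPM or more in the higher sum and seen in at least 5 cells of it. Of 2089 genes, 79 (3.78%) were higher and 66 (3.16%) lower in AT3, with a median log2 ratio of -0.01. The counts rested on the settings: 312 of 1528 genes were higher and 175 lower when each cell was thinned to 1500 UMIs, and 238 of 3870 were higher and 158 lower with a floor of 50 CPM. Both libraries' cells come from 1 hashtag, and cluster s5 had AT3 cells but no naive ones.

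Higher in AT3 were several genes of cluster s7 and s5. Apln, which encodes the ligand apelin, was at 129.5 CPM (93.4 to 175) in AT3 and 21.5 CPM (5.84 to 54.9) in naive (log2 ratio 2.35), and its ratio was 0.39 in cluster s1 alone. Prx, the periaxin gene of lung capillaries, was at 518 CPM (443 to 603) in AT3 and 129 CPM (82.5 to 192) in naive (log2 ratio 1.97). Enho and the T-box factor gene Tbx2 were also higher, at 160.4 and 315 CPM in AT3 and 32.2 and 107 CPM in naive, and both missed the limit after thinning to 1500 UMIs, with log2 ratios of 0.86 and 0.38. Itga3, an integrin gene, and BC004004 had log2 ratios of 1.52 and 1.83. Apoe, a lipid carrier gene, was at 154 CPM (114 to 203) in AT3 and 10.7 CPM (1.30 to 38.7) in naive, and only 7 of 24 AT3 cells had a UMI of it. Spp1 and Postn, matrix genes, were at 228 and 102 CPM in AT3 and 42.9 and 21.5 CPM in naive. They were also among the leading genes of the pericyte-like class and turned to lower in AT3, with log2 ratios of -1.16 and -0.61, when cluster s5 was left out. Pde5a, another leading gene of the pericyte-like class, had a log2 ratio of 1.68 over the class and -0.46 in cluster s1 alone.

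The 10 lowest ratios are given next. Rcan1, an inhibitor of calcineurin, was at 37.0 CPM (19.1 to 64.7) in AT3 and 327 CPM (250.2 to 420.2) in naive (log2 ratio -2.98). Edn1, the vasoconstrictor endothelin 1, was at 86.4 CPM in AT3 and 370.0 CPM in naive, Tmem252 at 176 and 896 CPM, and Adamts9, a matrix protease gene, at 40.1 and 219.9 CPM. Slc6a6, a taurine transporter gene, Apold1, Avpi1, Hspa1b, a heat shock gene, Ltbp4 and Ccn1 completed them, with log2 ratios between -2.96 and -2.08. Each of the 10 kept its direction in every alternative that was run, and Ltbp4 missed the limit, at -0.36, when cells were thinned to 1500 UMIs. In AT3-gcsf, whose 13 cells were too few for a comparison, Rcan1 stood at 162 CPM, Edn1 at 77.1 and Apln at 84.8.

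**Figure D5:**
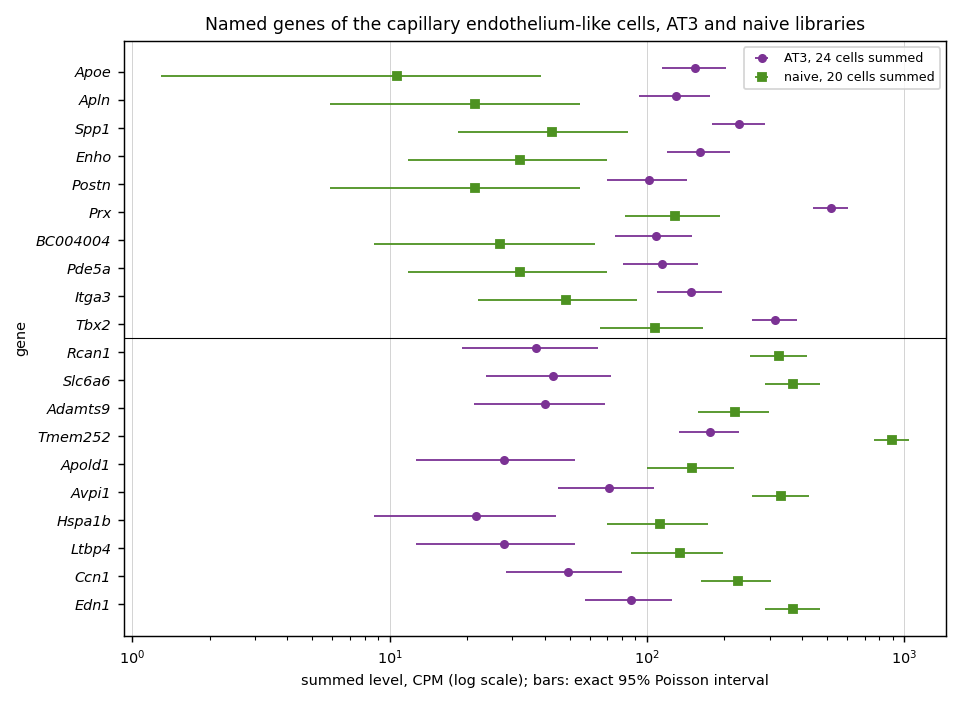
Summed level (CPM, log scale, with exact 95% Poisson intervals) of the 10 highest and 10 lowest named genes of capillary endothelium-like cells in AT3 (circles, 24 cells) and naive (squares, 20 cells). No pair of intervals overlaps, since the genes were picked for the size of their ratio, and cell-to-cell variation is not in the intervals.

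Gene lists are given by their counts in this comparison, beside 3.78% of all compared genes higher and 3.16% lower. Of 6 NF-kB feedback genes compared, 3 were lower and none higher in AT3: Ier3 at 1462 CPM in AT3 and 5159 in naive, Nfkbia, the inhibitor of NF-kB, at 574 and 1357 CPM, and Tnfaip3, which ends the signal, at 46.3 and 107 CPM. Their median log2 ratio was -0.88, beside -0.01 over all 2089 genes. Of 15 immediate-early genes, Atf3 was lower, at 712 CPM in AT3 and 1882 in naive, none was higher, and the median was -0.50. Such genes respond to cell isolation as well, and the part of this was not tested. Of 13 vessel and angiocrine genes Apln alone was called, and Kdr, the main VEGF receptor, stood at 728 and 375 CPM, a log2 ratio of 0.95 that passed the limit, at 1.17, without cluster s5. Of 5 class II genes Cd74 was higher, at 2492 CPM in AT3 and 1179.8 in naive, with H2-Aa at 777 and 434 CPM, a log2 ratio of 0.83. The Cd74 ratio missed the limit, at 0.80, when cells were thinned to 1500 UMIs, and that of H2-Aa passed it, at 1.05, without cluster s5. Of 13 class I, 8 glycolysis and hypoxia and 6 cell cycle genes none was called.

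Several called genes of the other lists are neutrophil transcripts that stood far higher in the sorted cells around them. Of 6 acute-phase genes 3 were higher in AT3, Wfdc17, Hp and Lcn2, the last short of the limit, at 0.57, after thinning. Wfdc17 was at 355 CPM in AT3 and 10.7 in naive endothelium-like cells, and at 10640.4 and 577 CPM in the other sorted cells of the 2 libraries. Ifitm1 was the 1 of 17 interferon-stimulated genes that was higher and Irf7 the 1 that was lower. Ifitm1 was at 475 CPM in AT3 and 21.5 in naive, beside 8587 and 767 CPM in the other sorted cells. Of 4 chemokine and cytokine genes Cxcl2 and Il1b were higher and Cxcl12 was lower. Il1b had 416 CPM in AT3 and 96.5 in naive, beside 6561 and 4922 CPM around them. Cxcl12, the chemokine that holds leukocytes in tissue, was at 241 CPM in AT3 and 826 in naive and under 1 CPM in the other sorted cells of both libraries. Cxcl12 was also the top leading gene of cluster s1, which held 12 of the 24 AT3 and 18 of the 20 naive cells. Library and mix of clusters are therefore not separated in its levels. The part of free neutrophil RNA in Wfdc17, Ifitm1, Il1b and the like was not tested. Of 4 lipid genes Apoe and Npc2 were higher, Npc2 with a log2 ratio of 0.26 after thinning, and no surfactant or secretoglobin gene reached the level for comparison.

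The second class with enough cells was the neutrophil-like cluster c13, with 35 cells and 92457 UMIs in AT3 and 21 cells and 40761 UMIs in naive. The cells differed in depth, with a median of 2607 UMIs in AT3 and 1815 in naive, and in hashtag. Of 1807 genes 278 (15.4%) were higher and 236 (13.1%) lower in AT3. The limit that a count of 0 allows, 3 UMIs, was 32.4 CPM in AT3 and 73.6 CPM in naive, close to the 100 CPM above which a gene was compared. Scaling by TMM moved the median log2 ratio to 0.24 and the counts to 421 higher and 163 lower. Igfbp6, a binding protein of insulin-like growth factor, stood out, with 151 UMIs in 32 of 35 AT3 cells and 2 UMIs in 2 of 21 naive cells. It was at 1633 CPM (1383 to 1915) in AT3 and 49.1 CPM (5.94 to 177) in naive, and at 396 and 13.9 CPM in the other sorted cells of AT3 and naive. The libraries differed in it in both kinds of cell. The other 9 of the 10 highest ratios had no UMI in naive. Slc28a2, a nucleoside transporter gene, had 22 UMIs in AT3, a level 3.23-fold the limit that a count of 0 allows over the naive sum (3 UMIs). The same ratio was 3.09-fold for Mif, a cytokine gene, and 1.76-fold to 2.35-fold for Casp4, Spata13, Cops4, Cybc1, Ergic2, Entpd3 and Ss18. These ratios leave out the counting error in AT3 and are not lower bounds. For Ergic2, Entpd3 and Ss18 the AT3 intervals began at 74.9, 67.1 and 67.1 CPM, below the naive upper end of 90.5 CPM.

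Counts of list members in c13 stand beside 15.4% of all compared genes higher and 13.1% lower, or 421 and 163 of 1945 under TMM scaling. Of 8 interferon-stimulated genes 5 were higher in AT3 and none was lower. Ifitm1, a membrane restriction factor, was at 10286 CPM (9642 to 10961) in AT3 and 1447 CPM (1102 to 1867) in naive, and its relative Ifitm3 at 2033 CPM in AT3 and 539.7 in naive. Oasl2 had 53 UMIs in AT3 and 3 in naive, Gbp2, a guanylate-binding protein gene, 23 and 1, and Rtp4 51 and 5. In the other sorted cells Ifitm1 was at 8587 CPM in AT3 and 767 in naive. Cells were clustered without batch correction, and cluster c15, led in part by the antiviral gene Oas3, held 79 naive and 11 AT3 cells. The part of the split between c13 and c15 in the counts of interferon-stimulated genes was not tested. Of 10 class I presentation genes 4 were higher (H2-Q4, H2-T23, Tap1 and Psmb9) and none lower. Of 9 acute-phase genes Lrg1, Wfdc17 and Chil1 were higher and none was lower, with Wfdc17 at 6381 CPM in AT3 and 1006 in naive. Ccl6, a myeloid chemokine gene, was lower, at 692 CPM (533 to 884) in AT3 and 4269 CPM (3658 to 4952) in naive, as were 3 of 11 immediate-early genes, Fos, Dusp1 and Nr4a1. Under TMM scaling Fos had a log2 ratio of -0.94 and Acsl1, below, one of -0.91, short of the limit. With shares near that over all genes, of 12 glycolysis and hypoxia genes 2 were higher (Eno1 and Slc2a1) and 2 lower (Slc2a3 and Ndrg1), and 1 of 5 NF-kB feedback genes, Sod2, was higher. Of 6 lipid genes 3 were higher (Fabp5, Plin2 and Apoe) and Acsl1, an enzyme of fatty acid activation, was lower. Ctss was the single class II gene compared and was higher, and none of the 2 cell cycle and 2 surfactant genes compared was called. Among the 10 lowest ratios, Maz, Sfswap, Wipf2 and L1cam had no UMI in AT3 and at most 6 in naive, and Emp3 had 4 UMIs in AT3 and 22 in naive. The remaining 5, Mrtfa, Ggps1, Samd4b, Ppp1r10 and Atp11b, rested on 1 to 3 UMIs in AT3 and 5 to 10 in naive. Csf3r had a log2 ratio of -0.40 and was not called.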

How the data were processed

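The authors deposited UMI counts of each gene in each called barcode. Per the submitters' processing notes, bcl2fastq 2.20.0.422 and then Cell Ranger 4.0.0 were used, and mm10 was the genome. Hashtag counts came as separate deposited files, which were matched to libraries by their barcodes: a dominant tag was found for 94.1% of barcodes in AT3-gcsf, 97.4% in AT3 and 95.7% in naive, and for at most 0.672% with any other file. Doublets were only marked, with Scrublet as in scanpy 1.11.5 (expected rate 8%), which called 46.3%, 36.0% and 41.7% of the barcodes without an 80% tag. Of low-S100 cells 3, 2 and 6 were left out for protease UMIs.

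Chosen cells were scaled to 10000 counts, log-transformed and clustered on 2000 variable genes, 20 principal components and 10 neighbours, with no batch correction, at Leiden resolution 1 (igraph 0.11.9). The 1% limit for neutrophil-like clusters and a second clustering of the other cells at resolution 2 were set after the data were seen. A cluster was named from marker lists. Levels are summed counts scaled to CPM. No p-value was computed, since each group is 1 library. Genes named from a comparison were the 10 highest and 10 lowest ratios above the level in the other sorted cells, without mitochondrial, ribosomal and predicted genes, and the called members of gene lists. On simulated counts for the endothelial comparison over 2010 genes, 191 of 200 genes changed 4-fold were recovered and 37 unchanged genes were called. The members, marker lists and gene lists were chosen with earlier results of these data known. Mx1 of the interferon list was not among the features. Coordinates are those of GENCODE vM21. Alternatives included edgeR 4.0.16 TMM scaling.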

Additional observations from a re-analysis of the deposited data

How the results depend on the processing

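The share of chosen cells followed the S100a8 and S100a9 limit. Below 1% it was 0.445% in AT3-gcsf, 0.832% in AT3 and 2.55% in naive, and below 5% it was 4.13%, 9.16% and 13.8%. With mitochondrial UMIs under 5% it was 2.14% in AT3, and with at least 1000 genes 6.63% in naive. The order of the libraries held in each. Other numbers of components or resolutions put 675 to 679 of the 679 cells on the same side of the neutrophil-like split.

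In capillary endothelium-like cells a floor of 50 CPM gave 238 genes higher and 158 lower in AT3, and cells thinned to 1500 UMIs gave 312 higher and 175 lower, from 24 AT3 and 18 naive cells. The settings by cluster were chosen after seeing the data. In cluster s1 alone, with 12 AT3 and 18 naive cells and so below the 20-cell minimum, 100 of 2097 genes were higher and 110 lower. Without cluster s5 the log2 ratio of Spp1 was -1.16 and of Postn -0.61, and in s1 alone Spp1 was at -1.29, Postn at -1.12 and Pde5a at -0.46. Apln was at 0.39 in s1 alone and 0.93 without s7. Thinning left Enho at 0.86, Tbx2 at 0.38, Ltbp4 at -0.36, Cd74 at 0.80, Lcn2 at 0.57 and Npc2 at 0.26, all short of the limit. Over both comparisons, ratios of single genes kept their direction and side of the limit in 535 recomputations, lost the call in 25 and gained it in 5, apart from the 5 reversals given here. In c13 TMM scaling gave 421 genes higher and 163 lower of 1945, and the 50 CPM floor 595 higher and 236 lower of 2435. The cause of these shifts was not tested. The comparisons with S100a8 and S100a9 below 1%, and without a hashtag, were not run where fewer than 20 cells were left.

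No paired analysis was possible because the hashtags of a library are tied by no label to those of another, and no result comes from a test. With 1 library in each group there was no replicate to leave out. Counting cells with at least 3 endothelial markers, in place of clusters, gave 21 in AT3-gcsf, 44 in AT3 and 44 in naive among the cells of other lineages. The capillary endothelium-like class had 13, 24 and 20. Pericyte-like cells and the class led by Selp and Vwf also carried endothelial markers. Among the other sorted cells 9, 16 and 14 had at least 3 endothelial markers. Leaving out cells marked by Scrublet removed 3 cells, all in naive. Depth limits the absent classes: by a limit of 3 cells a count of 0 allows up to 0.0297% of tagged cells in AT3-gcsf, 0.0396% in AT3 and 0.0418% in naive, below the exact upper bounds of 0.0365%, 0.0487% and 0.0514%.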
